A study of Mus musculus with 2 samples.

Results

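The antigen presentation genes B2m, H2-K1, H2-D1, Tap1, Tap2, Tapbp and Nlrc5 of the class I pathway, and Cd74, H2-Aa and H2-Ab1 of the class II pathway, were followed in mouse liver shortly before birth. These members were chosen by symbol and looked up in both deposited gene tables. All 10 of 10 were found among 43346 mouse gene identifiers, and the rule that chose them uses symbols and no level. The samples were 2 libraries of poly(A)+ RNA from C57BL/6J liver at embryonic day 18 (E18), which the labels call biological replicates 1 and 2 of 1 untreated group, with pooled male and female littermates named as the source. There was no second age, tissue or treatment, so each gene's level is described in both libraries, and the libraries are set against each other with 1 on each side and no p-value. The SD over the 2 libraries covers whatever separated these samples, which may be partly technical, since nothing states how many embryos entered each.

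Class I molecules consist of a heavy chain, encoded in mouse by H2-K1 and H2-D1 among others, bound to the small chain beta-2-microglobulin (B2m). They show peptides from a cell's own proteins to CD8+ T cells. The peptides are cut by the proteasome, pumped into the endoplasmic reticulum by the TAP1-TAP2 transporter, and loaded with the help of tapasin (Tapbp). Class II molecules, pairs of an alpha and a beta chain such as the products of H2-Aa and H2-Ab1, are guided to endosomes by the invariant chain Cd74, and mainly B cells, dendritic cells and macrophages carry them. NLRC5 is the main transactivator of class I genes and CIITA that of class II genes. The liver of a late fetus still produces blood cells, so hepatocytes, red cell precursors, macrophages and B cell precursors all contribute to its RNA.

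The libraries held 163766625 and 139889938 expected counts (estimated fragments per gene). Albumin (Alb), the main product of hepatocytes, stood at 75317 and 75756 TPM, an abundance per length scaled to a fixed total and so comparable between genes. Both libraries went against the label of pooled sexes. Xist, the RNA of the inactive X chromosome, was counted 157187 times in replicate 1 but 41 times in replicate 2. The Y-linked gene Ddx3y was counted 1 and 6544 times. Every ratio of replicate 1 over replicate 2 therefore also sets a library high in Xist against one high in Y-linked RNA. Sex cannot be told apart from any other difference between the libraries. In the older deposited gene table on build mm9, the first of its 2 values is the one low in Xist (0.0362 RPKM, against 27.0 RPKM in the second), so its order is crossed relative to replicates 1 and 2. Its values are therefore given below as unnumbered pairs. The junction list has Xist in its count 1, as in replicate 1. Markers of pancreas acinar cells were also unequal, at a summed 56.8 TPM in replicate 1 and 0.90 TPM in replicate 2 over 10 genes. Their part in any difference between the libraries was not tested.

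All 10 genes reached 1 TPM in both libraries, and the chains of class I stood far above the others. B2m led with 458 ± 42.2 TPM (mean ± SD, n = 2), a level higher than 98.3% of the 12557 genes whose mean reached 1 TPM. H2-K1 followed with 197 ± 20.7 and H2-D1 with 107 ± 12.5 TPM, and after a gap came Tapbp with 20.9 ± 1.68 TPM. Next stood Cd74 with 12.7 ± 2.16, H2-Ab1 with 10.3 ± 1.49, Tap1 with 8.76 ± 1.02, Tap2 with 6.57 ± 0.495 and H2-Aa with 5.70 ± 1.51 TPM. Nlrc5 was lowest with 1.325 ± 0.276 TPM, higher than 4.52% of the same 12557 genes. In this order the ranges of Cd74 and H2-Ab1, of H2-Ab1 and Tap1, and of Tap2 and H2-Aa overlapped across the libraries. Within each library, however, Cd74 stood above H2-Ab1 (14.19 against 11.34 TPM in replicate 1 and 11.13 against 9.23 TPM in replicate 2). H2-Ab1 likewise stood above Tap1, which had 9.48 and 8.04 TPM. Tap2 and H2-Aa changed places, at 6.22 against 6.76 TPM in replicate 1 and 6.92 against 4.63 TPM in replicate 2. The other 6 neighbouring pairs did not overlap.

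**Figure D1:**
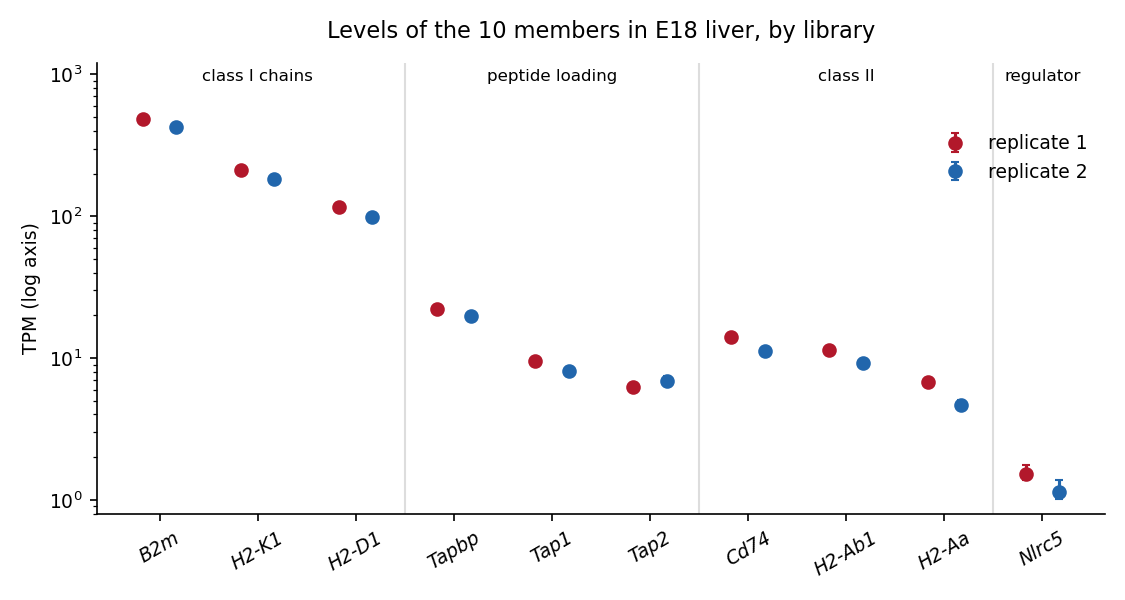
TPM of each member on a log axis in replicate 1 (red, left) and replicate 2 (blue, right), grouped by role. Bars are the credibility intervals deposited by the authors for each library and cover estimation within a library only. The class I chains lie between 98.0 and 488 TPM and every other member lies at or below 22.1 TPM.

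The class I chains were abundant. B2m (ENSMUSG00000060802, chromosome 2, 122147686 to 122153083 on mm10, plus strand) stood at 488 TPM in replicate 1 and 428 TPM in replicate 2, from 48943 and 35131 expected counts. H2-K1 (chromosome 17, 33996017 to 34000347, minus strand), the K heavy chain, stood at 211 and 182 TPM. H2-D1 (chromosome 17, 35262730 to 35267499, plus strand), the D heavy chain, stood at 116 and 98.0 TPM. Each was higher in replicate 1, yet their proportions were nearly fixed. H2-K1 was 1.82 times H2-D1 in replicate 1 and 1.86 times in replicate 2, and B2m was 1.49 and 1.53 times the sum of both.

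The heavy chain with the most RNA was not a member. H2-Q10, which encodes a class I chain that mouse hepatocytes secrete, stood at 462 TPM in replicate 1 and 434 TPM in replicate 2, which was 2.19 and 2.38 times H2-K1. It held 48.3% ± 1.253 (SD, n = 2) of the TPM summed over the 16 listed heavy chains, against 21.2% ± 0.738 for H2-K1 and 11.5% ± 0.540 for H2-D1. H2-T23, the mouse Qa-1 gene whose product presents signal peptides to natural killer cell receptors, held 11.2% ± 0.431, and its range in TPM overlapped that of H2-D1. The chains H2-Q4 and H2-T22 had 18.65 ± 3.01 and 14.025 ± 1.11 TPM. Other proteins that pair with B2m added to these, and the highest was the IgG and albumin receptor Fcgrt at 58.6 ± 2.33 TPM, then the lipid-presenting Cd1d1 at 33.4 ± 8.24, the iron regulator Hfe at 15.3 ± 0.643 and Mr1, which presents vitamin metabolites, at 1.435 ± 0.233 TPM. Set against all 21 listed partners together, B2m reached 0.447 of their summed TPM in replicate 1 and 0.436 in replicate 2.

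Heavy chain genes resemble each other, which bears on how fragments could be assigned. The coding sequences of the main H2-K1 and H2-D1 transcripts (H2-K1-201 and H2-D1-202) were identical at 985 of 1077 aligned bases, or 91.5%, and the longest run without a difference was 91 nt. The 60 coding bases with the most differences, shown because reads over them separate the genes, hold 15 differences, in capitals (GENCODE M21, coding strand, counted from the first base of the start codon).
H2-K1, bases 492 to 551: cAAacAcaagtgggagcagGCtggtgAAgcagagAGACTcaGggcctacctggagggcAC
H2-D1, bases 501 to 560: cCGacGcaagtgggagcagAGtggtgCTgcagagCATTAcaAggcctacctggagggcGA
Of all windows of 1 read length in the annotated transcripts, H2-D1 shared 3.55% (92 of 2591) with transcripts of other genes and H2-K1 shared 0.905% (36 of 3977, with H2-Q10, H2-Q5 and H2-Q7). Tapbp shared 2 windows and the other 7 members shared none. The authors' posterior SD of the count was 0.58 and 0.23 fragments for H2-K1 and 2.17 and 1.20 for H2-D1, and 0 for the other 8 members, so by the authors' measure the assignment of shared reads was nearly fixed.

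The peptide transporter and tapasin genes stood below the class I chains. Tapbp (chromosome 17, 33915899 to 33929292, plus strand), which bridges the transporter and the empty class I molecule, stood at 22.1 TPM in replicate 1 and 19.7 TPM in replicate 2. Tap1 (chromosome 17, 34187553 to 34197225, plus strand) stood at 9.48 and 8.04 TPM, and Tap2 (chromosome 17, 34203527 to 34216321, plus strand) at 6.22 and 6.92 TPM. The transporter needs both proteins. The ratio of Tap1 over Tap2 in gene TPM was 1.52 in replicate 1 and 1.16 in replicate 2. Part of each gene's TPM was given to transcripts not annotated as protein coding. The main coding transcripts had 6.12 and 4.99 TPM for Tap1-206 and 1.41 and 2.10 TPM for Tap2-201. In gene TPM, Tap2 alone of the 10 members was lower in replicate 1. The authors' intervals for Tap2, 6.04 to 6.66 TPM and 6.71 to 7.42 TPM, did not overlap.

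The other 11 genes listed for peptide supply and loading were all at 1 TPM or more. The chaperones that fold class I chains were high, with Calr at 362 ± 28.1, Pdia3 at 149 ± 12.1 and Canx at 90.02 ± 8.22 TPM. The proteasome activator Psme1 had 81.5 ± 0.962 TPM. Some proteasome subunits have an immune form that replaces a constitutive one, and the constitutive form led in each of the 3 pairs. Psmb8 stood at 0.382 of Psmb5 in replicate 1 and 0.281 in replicate 2, Psmb9 at 0.111 and 0.0839 of Psmb6, and Psmb10 at 0.258 and 0.252 of Psmb7. Psmb8 and Psmb9 are neighbours of Tap1 and Tap2 within the H2 complex. Psmb9 (34181987 to 34187764, minus strand) overlaps the start of Tap1, and whether the authors' counting used strand is not given in the sources used here. Psmb8 had 30.95 and 22.03 TPM, and Psmb9 had 14.85 and 10.95 TPM.

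The class II members stood well below the class I chains. Cd74, H2-Ab1 and H2-Aa were higher than 61.5%, 55.6% and 38.3% of the 12557 genes whose mean reached 1 TPM. Cd74 (chromosome 18, 60803848 to 60812652, plus strand), the invariant chain, stood at 14.2 TPM in replicate 1 and 11.1 TPM in replicate 2. H2-Ab1 (chromosome 17, 34257689 to 34269419, plus strand), the beta chain of I-A, stood at 11.3 and 9.23 TPM. H2-Aa (chromosome 17, 34282744 to 34287823, minus strand), its alpha chain, stood at 6.76 and 4.63 TPM. H2-Ab1 exceeded H2-Aa by 1.68 and 1.99 times. The summed class I chains H2-K1 and H2-D1 exceeded the summed class II chains H2-Aa and H2-Ab1 by 18.1 times in replicate 1 and 20.2 times in replicate 2 (19.1 ± 1.51).

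Of the other class II chains, the I-E beta chain H2-Eb1 had 3.59 and 2.52 TPM, and H2-Eb2 had 1 and 5 counts. The I-E alpha gene, which C57BL mice are known not to express, is annotated as H2-Ea-ps and had 0 counts in both libraries, which allows up to 3 counts in each. The peptide-exchange chain H2-DMa had 2.25 ± 0.0849 TPM and its inhibitor's chains H2-Oa and H2-Ob had 0.860 ± 0.170 and 1.31 ± 0.226 TPM. The endosomal proteases stood far higher, with Ctsl at 221 ± 12.3, Ctsh at 135 ± 24.5, Lgmn at 75.6 ± 3.39 and Ctss at 49.7 ± 7.89 TPM, and these serve protein breakdown in many cell types. Of 10 genes listed for class II loading and processing other than Cd74, 9 reached a mean of 1 TPM.

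Regulators were low. Nlrc5 (chromosome 8, 94434356 to 94527272, plus strand) stood at 1.52 TPM in replicate 1 and 1.13 TPM in replicate 2, from 732 and 442 counts. Ciita had 66 and 56 counts, or 0.08 and 0.09 TPM. Nlrc5 was 19.0 and 12.6 times Ciita in TPM, a ratio that rests on Ciita values of 1 digit. It also rests on Nlrc5 TPM of which most was given to transcripts other than the coding Nlrc5-201. That transcript alone had 0.50 and 0.38 TPM. The pair of mm9 RPKM values gave 6.65 and 7.80 times. Both transactivators act through a shared set of proteins bound to MHC promoters, and these were higher, with Rfx5 at 3.42 ± 0.255, Rfxank at 2.86 ± 0.382, Rfxap at 8.74 ± 1.20, Nfya at 23.6 ± 1.01, Nfyb at 23.8 ± 0.134, Nfyc at 43.5 ± 2.04 and Atf1 at 19.8 ± 1.35 TPM.

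MHC promoters typically carry, in a fixed spacing, an X2 box bound by CREB or ATF factors and a Y box bound by NF-Y. RefSeq promoter windows (GRCm38.p6, 250 bases before to 50 bases after a start) were on hand for 6 of the 10 members. They were searched on both strands for TGACG, the core of the X2 box, followed by ATTGG, the core of the Y box, 5 to 40 bases later, a pair chosen after these sequences had been seen. The pair was found in B2m, H2-K1, H2-D1 and H2-Aa, with gaps of 20, 20, 20 and 21 bases, and not in the Tap1 and Tapbp windows. Windows of H2-Q10, H2-Eb1, Psmb8 and Psmb9, which are not members, were searched as well and did not hold it. Of 32851 promoters in the table, 1.06% hold such a pair, 20.8% hold TGACG and 37.4% hold ATTGG. The stretches are shown because the same 2 cores, in capitals, precede genes that differ widely in level. They read 5′ to 3′ along the gene, and the last is longer by a base between the cores.
B2m, chr2:122147595-122147646, plus strand: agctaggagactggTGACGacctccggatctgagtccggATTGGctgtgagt
H2-K1, chr17:34000351-34000402, minus strand: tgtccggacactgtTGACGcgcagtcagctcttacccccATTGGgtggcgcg
H2-Aa, chr17:34287859-34287911, minus strand: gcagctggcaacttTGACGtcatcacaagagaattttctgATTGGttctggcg
The H2-D1 pair lies within the annotated first exon of H2-D1-202. Further upstream, H2-K1 and H2-D1 also held GGGATTCCC, a core bound by NF-kB factors that 0.353% of promoters hold. The stretch of H2-K1 with that core in capitals is chr17:34000426-34000463, minus strand.
H2-K1: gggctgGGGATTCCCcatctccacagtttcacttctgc
The B2m window held a core of interferon response elements, GAAA repeated after any 2 bases, found in 3.44% of promoters. Only this exact pattern was searched, so the other windows, H2-K1 included, may hold variant forms. A match in a window does not show that a factor binds there.

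The transcripts behind the levels differed in kind between members, as the authors' shares of each gene's TPM show. B2m rested on 1 transcript, B2m-201, with 100%. H2-D1-202 held 93.1% and 93.5% of H2-D1, H2-Aa-201 held 97.8% and 98.1% of H2-Aa, and H2-Ab1-201 held 97.5% and 95.1% of H2-Ab1. H2-K1 was split between H2-K1-201, of 369 residues, with 76.0% and 73.0%, and H2-K1-205, of 360 residues, with 19.5% and 22.7%. These were all protein-coding forms. Tap1, Tap2, Tapbp and Nlrc5 carried sizable shares on transcripts annotated as retained introns.

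Tap2 had the largest such share. Tap2-202, a retained-intron transcript, was given 76.6% of Tap2 TPM in replicate 1 and 69.6% in replicate 2, and the coding transcript Tap2-201 only 22.6% and 30.4%, or 1.41 and 2.10 TPM. The coding transcript Tap1-206 held 64.6% and 62.1% of Tap1, or 6.12 and 4.99 TPM. Tapbp-201 held 68.3% and 70.3% of Tapbp, and the coding Nlrc5-201 held 32.6% and 33.6% of Nlrc5, or 0.50 and 0.38 TPM. For Nlrc5, the short retained-intron transcript Nlrc5-203 held 42.5% and 44.0%. In TPM, most of the Tap2 and Nlrc5 levels was thus assigned to transcripts not annotated as protein coding. By expected counts, which are not divided by length, the coding Nlrc5-201 held 519 of 732 fragments in replicate 1 and 328 of 442 in replicate 2. Whether fragments given to retained-intron transcripts came from unspliced RNA was not tested. Splicing was nonetheless read along all of Tap2, with 109 to 243 reads in count 1 and 110 to 244 in count 2 of the junction list at each of 11 junctions.

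**Figure D2:**
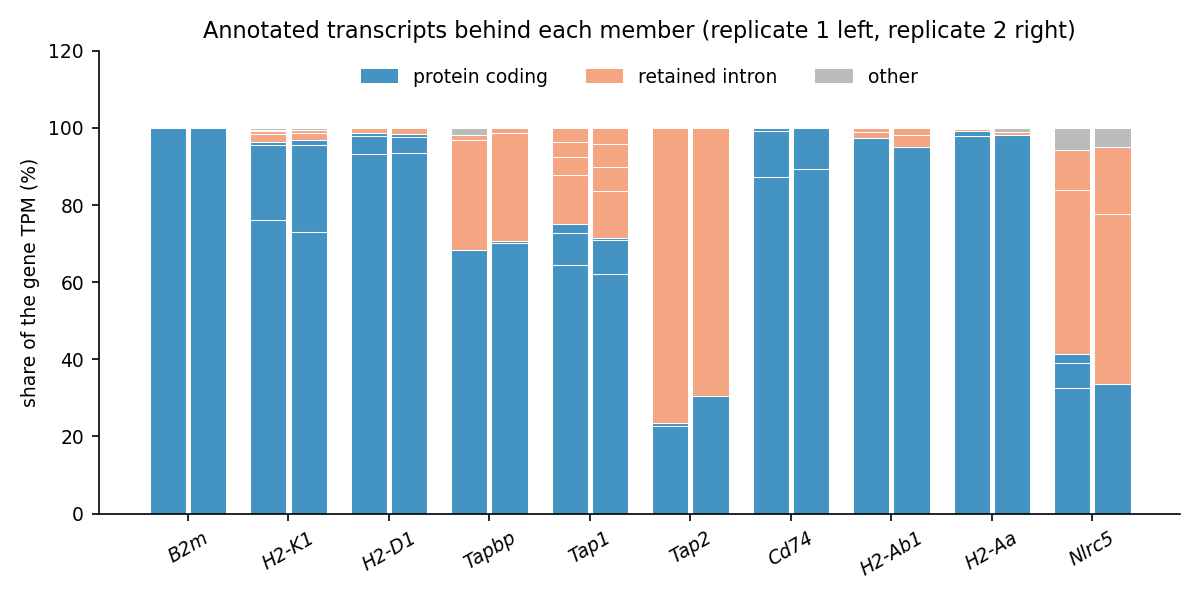
Share of each gene's TPM (percent) given to each annotated transcript by the authors, replicate 1 left and replicate 2 right, coloured by annotated type with a white line between transcripts. Retained-intron transcripts hold most of Tap2 in both libraries, and B2m has 1 transcript.

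Cd74 occurs as a short form and a longer form with an added exon that encodes a protease-inhibitor domain. The short Cd74-201, of 215 residues, held 87.3% in replicate 1 and 89.4% in replicate 2, and the long Cd74-202, of 279 residues, held 11.8% and 10.6%. Reads across splice junctions, counted by the authors on mm9, gave a like value. In count 1, 35 and 43 reads joined into and out of the added exon and 264 skipped it. In count 2 these numbers were 20, 18 and 126. The inclusion came to 12.9% and 13.1%, so the 2 counts differed little.

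Between the libraries, 9 of the 10 members were higher in replicate 1 relative to all genes, while spike-in scaling, which puts the median of all genes at -0.54, left 2 of 10 above 0. The comparison used expected counts scaled by TMM (edgeR's scaling for library size and composition) as log2 of replicate 1 over replicate 2. Every ratio below is on that scale, hence relative to all genes, and 0.58 marks 1.5-fold. The median over the members was 0.34, against -0.0002 over the 14956 genes with a mean count of at least 50. Of those genes, 50% were higher in replicate 1 by any amount, and 9.58% had a ratio at or above the members' median. Past 1.5-fold in either direction were 5.71% of all genes and 1 of 10 members, H2-Aa, and past 1.5-fold in favour of replicate 1 were 4.09% of all genes. Among genes with a mean count of at least 500, which all 10 members reached, 2.49% passed in either direction. From deposited TPM, H2-Aa had a log2 ratio of 0.545 and no member passed. A single member past the fold does not stand apart from these shares.

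The class I chains moved by similar amounts. B2m had a log2 ratio of 0.31 (95% counting interval 0.29 to 0.33), H2-K1 one of 0.33 (0.31 to 0.35) and H2-D1 one of 0.34 (0.32 to 0.37). Tap1 had 0.30 (0.23 to 0.38) and Tapbp 0.24 (0.19 to 0.30). Tap2 had -0.09 (-0.17 to -0.01), the only negative value. The intervals cover counting error only. Their narrow width reflects the high counts and says nothing of the spread between livers.

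The class II genes and Nlrc5 had the highest ratios among the members. H2-Aa had 0.66 (0.51 to 0.82), Nlrc5 0.56 (0.39 to 0.74), Cd74 0.47 (0.38 to 0.57) and H2-Ab1 0.44 (0.33 to 0.54). For H2-Aa the scaled counts were 902 in replicate 1 and 569 in replicate 2. Its neighbour H2-Eb1 had 0.63. In the mm9 gene table, which pairs the values in the crossed order, 6 of the 10 members were higher in the second value, among them B2m at 67.1 and 80.7 RPKM and H2-Aa at 0.813 and 1.32 RPKM. The other 4 were higher in the first value. These were Tap2 at 2.52 and 1.145 RPKM, Tap1 at 2.66 and 1.67 RPKM, Tapbp at 8.16 and 7.09 RPKM and Nlrc5 at 0.235 and 0.182 RPKM. The share of all genes higher in either value was not computed, so these counts of members have no background. With the order crossed, the raw pairs of Tap1, Tapbp and Nlrc5 run opposite to their ratios on mm10. The pairs were not centred on all genes as those ratios were, so their directions are not like for like. Junction reads on mm9, centred on all genes, gave log2 ratios of 0.29 for Tap1, 0.23 for Tapbp and 0.62 for Nlrc5.

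**Figure D3:**
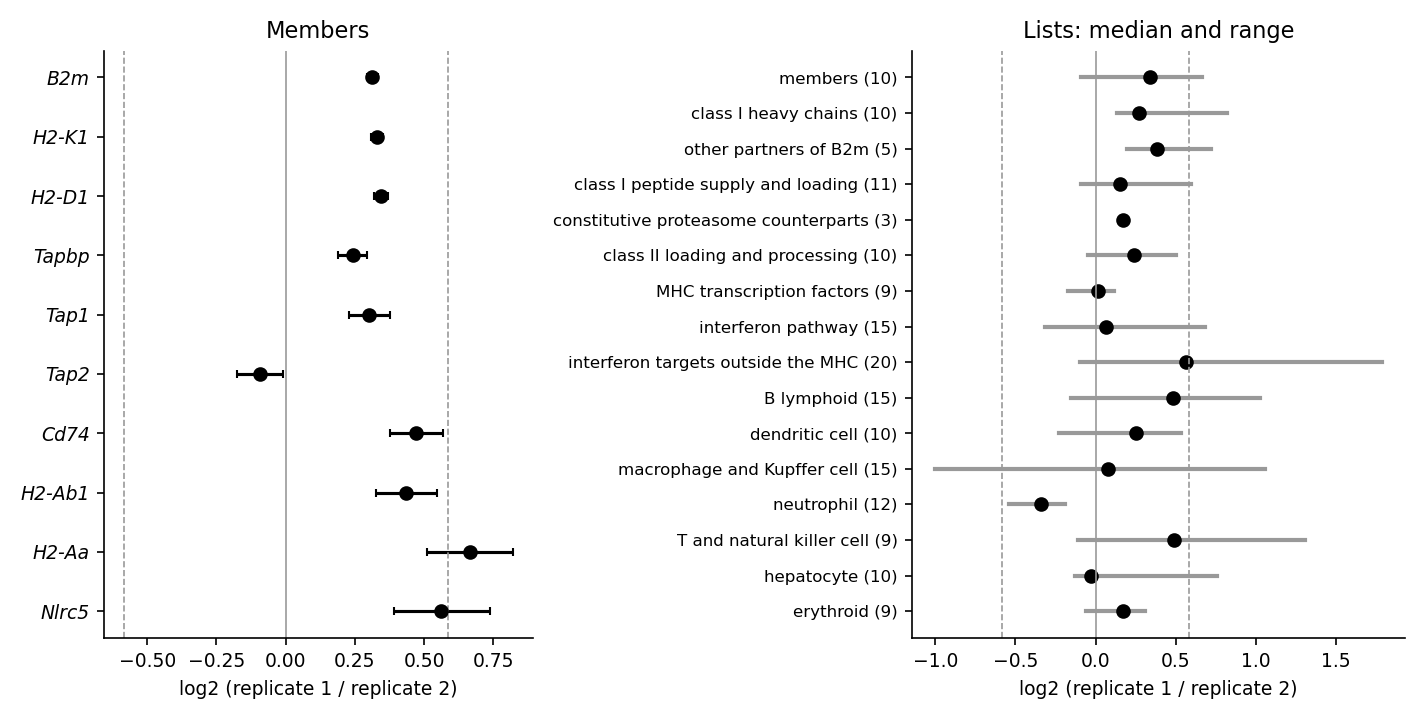
Left, log2 ratio of replicate 1 over replicate 2 for each member on TMM-scaled counts, relative to all genes, with 95% counting intervals. Right, the median (point) and range (line) of the same ratio over gene lists, with the number of genes at a mean count of at least 50 in brackets and the members left out of every other list. Dashed lines mark 1.5-fold. All members but Tap2 lie right of 0, and the neutrophil list lies wholly left of 0.

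Junction reads showed whether a ratio held along a gene. Over junctions with at least 20 reads, and after the ratio of count 1 over count 2 was centred on the median of 12386 genes, all 4 junctions of H2-Aa, 5 of H2-Ab1 and 9 of Cd74 were higher in count 1, as were 9 of H2-D1, 8 of 9 of H2-K1 and 26 of 32 of Nlrc5. Tap2 was higher in count 1 at 3 of 11 junctions. B2m was uneven. Its first intron had 6939 and 7043 reads, while the second had 11621 and 7782 and the third 11100 and 7264. Summed per gene, the centred log2 ratio was 0.24 for B2m, 0.89 for H2-Aa, 0.62 for Nlrc5 and -0.11 for Tap2.

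**Figure D4:**
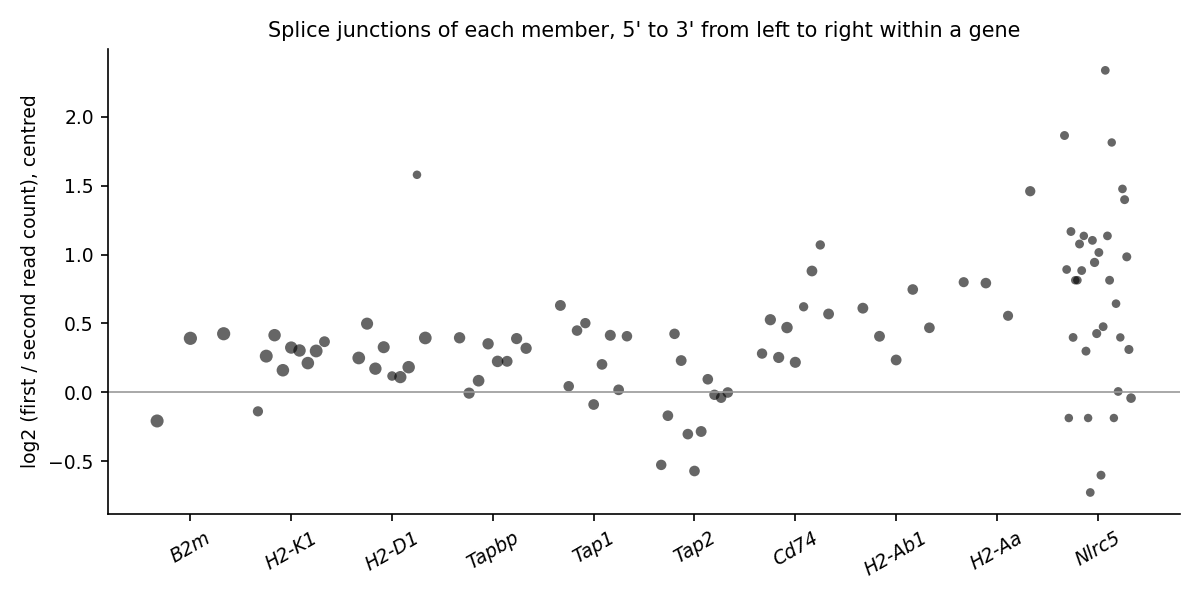
Log2 ratio of count 1 over count 2 for each splice junction with at least 20 reads, centred on the median of all genes, in 5′ to 3′ order within each member, with larger points for more reads. The first B2m junction lies below 0 and the other B2m junctions above it, and the 4 H2-Aa junctions all lie above 0.

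Most genes listed for the H2 complex were higher in replicate 1 on the same scale. The list was made by symbol, from H2 genes in the region plus Tap1, Tap2, Tapbp, Psmb8 and Psmb9. Other genes of the region were not in it, so the counts do not describe the region as a whole. Of the 50 listed genes on chromosome 17, 7 members among them, 26 reached a mean of 1 TPM and 13 had no count in either library. Of 28 with a mean count of at least 50, 25 were higher in replicate 1 (background 50%) and 5 past 1.5-fold in that direction (background 4.09%), with a median of 0.34. In the list of other heavy chains, 10 of 10 were higher in replicate 1, from 0.13 for H2-T24 to 0.82 for H2-Q2, with H2-Q6 at 0.58. H2-Q10, the highest of them, had 0.16. The other B2m partners were also all higher, with a median of 0.38 over 5 genes and 0.72 for Cd1d1.

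**Figure D5:**
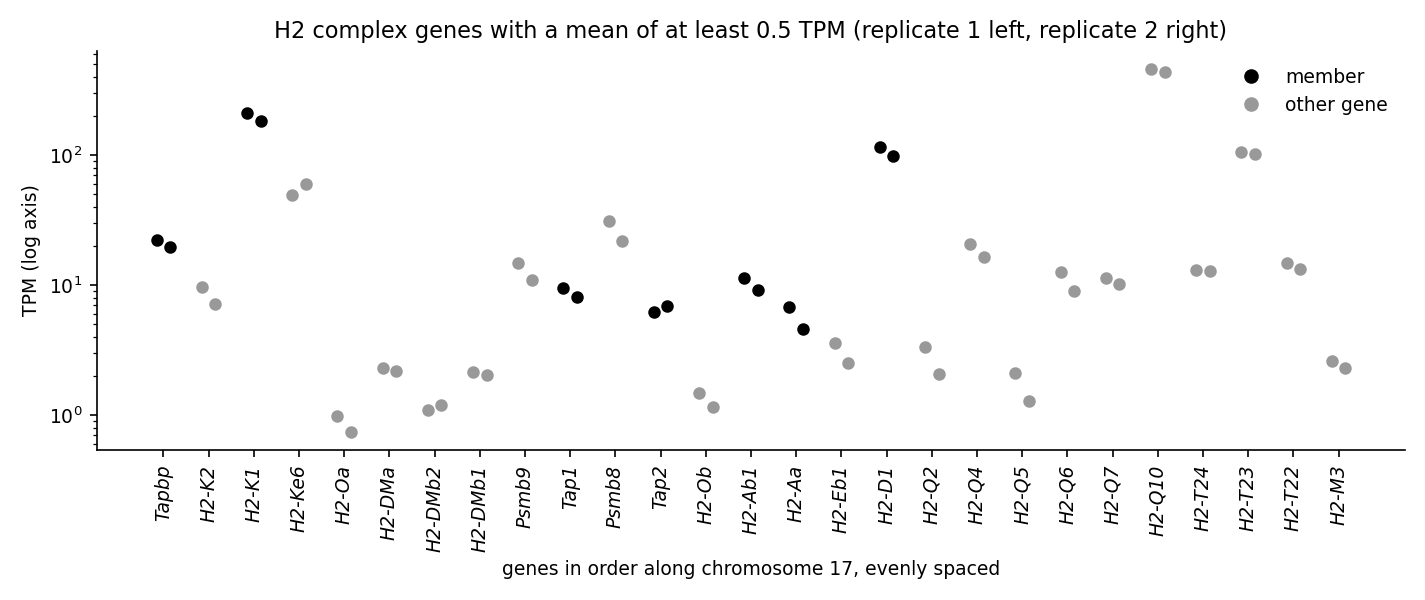
TPM on a log axis of the genes listed by symbol for the H2 complex with a mean of at least 0.5 TPM. They stand in their order along chromosome 17 and evenly spaced, replicate 1 left and replicate 2 right, members in black. H2-Q10, H2-K1, H2-D1 and H2-T23 stand above the rest.

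Genes outside the chains gave mixed ratios. Among the 11 other peptide supply and loading genes, 8 were higher and 3 lower in replicate 1, with a median of 0.15. Psmb9 had 0.59 and Psmb8 0.55, whereas the constitutive Psmb5, Psmb6 and Psmb7 had 0.17, 0.17 and 0.14. The 10 class II loading and processing genes other than Cd74 had a median of 0.24, with H2-Oa at 0.50 and Ctsl at -0.003. The 9 MHC transcription factors other than Nlrc5 had a median of 0.02 and none passed 1.5-fold. Rfx5 had 0.11, Ciita 0.07, Rfxap -0.16 and Rfxank -0.17.

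Interferons raise both classes of MHC genes, so their pathway was listed beside the members. Of 15 pathway genes with a mean count of at least 50, 10 were higher in replicate 1, with a median of 0.06. The transcription factors Irf7 and Irf1 had 0.68 and 0.23, and Irf2 had -0.32. Ifng itself had 14 counts in replicate 1 and 4 in replicate 2, and Ifnb1 had none. Interferon targets outside the MHC were higher in replicate 1 for 17 of 20 genes, and 9 of these passed 1.5-fold (background 4.09%), with a median of 0.57. Isg15, a ubiquitin-like protein, stood at 186 and 90.6 TPM (1.17), Rsad2, an antiviral enzyme, at 52.1 and 30.01 TPM (0.90), and the chemokine Cxcl9 at 0.60 and 0.19 TPM (1.79). Bst2 had 0.53, and the GTPases Irgm1 and Igtp 0.52 and 0.24. Mx1, Mx2 and Ifit2 had -0.08, -0.03 and -0.10. The listed targets summed to 701 TPM in replicate 1 and 475 TPM in replicate 2, and their part in the members' difference was not tested.

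Markers of lymphoid cells were also mostly higher in replicate 1. Of 15 B lymphoid markers, 14 were higher in replicate 1 (background 50%), 5 of them past 1.5-fold (background 4.09%), with a median of 0.48 and sums of 221 and 179.6 TPM. Ighm had 0.42, Vpreb3 0.73 and Cd37 -0.15, and none of the 15 was at 0. Of 13 dendritic cell markers, 10 had a mean count of at least 50, and 7 of these were higher in replicate 1, with a median of 0.25. Their sums of 173 and 134 TPM came mostly from Bst2, which is also an interferon target, at 155.7 and 117.9 TPM, while Xcr1 had only 9 and 4 counts. Of 9 T and natural killer cell markers with such a mean count, 8 were higher in replicate 1 and 4 passed 1.5-fold in that direction. The median ratio of these 9 was 0.49. All 14 listed summed to 24.8 and 17.6 TPM, led by the granzyme Gzma at 9.28 and 5.10 TPM, and Cd3e had 2 counts and 0.

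Macrophage and neutrophil markers did not share that direction. Of 15 macrophage and Kupffer cell markers, 8 were higher and 7 lower in replicate 1, with sums of 1115 and 1197 TPM and a median of 0.07. Clec4f had 1.05 and Marco -1.004 within this list. All 12 neutrophil markers were lower in replicate 1, with a median of -0.34 and sums of 9651 and 13848 TPM. Hepatocyte markers had a median of -0.03 and sums of 154602 and 157156 TPM, erythroid markers one of 0.17 and sums of 224825 and 218663 TPM, and endothelial and mesenchymal markers medians of 0.02 and -0.04. In bulk tissue, fewer cells of a type and less RNA per cell cannot be told apart, and the part of any of these cell types in the members' levels was not tested.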

How the data were processed

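Gene tables for each library were made by the authors on mm10 with GENCODE M4, per the file headers and deposited notes, with an aligner and quantifier not given in the sources used here. They hold a deposited expected count (estimated fragments per gene), TPM values that the authors scaled by effective length to a fixed total, and deposited FPKM values. In the deposited transcript tables, the authors list each transcript with its percent of the gene TPM. Deposited mm9 files (ENSEMBL 65) give a pair of RPKM values per gene and a read count per splice junction. No coordinates were converted between builds.

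Symbols came from GENCODE M21, by which 42462 of 43346 identifiers matched. Mouse genes held 97.2% and 97.9% of counts and spike-ins 2.79% and 2.01%, and rows naming no gene were left out. Expected counts were rounded and scaled by TMM (edgeR 4.0.16, R 4.3.3), with 0.5 added before log2. The size ratio was 1.121 and the common coefficient of variation of the pair 0.141. Levels between genes were compared in TPM only. Counting intervals are exact binomial (Clopper-Pearson, 95%, scipy 1.17.1) and cover counting error only, since fragments carry no molecular identifiers. The ratio step was tested on simulated Poisson counts with known folds. These hold no spread between livers, so the test says nothing of how reliable a 1.5-fold call is. DESeq2 1.42.0 size factors, spike-ins, TPM, junction reads, other folds and other count minimums were alternatives.

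The members, lists and naming rule (each member, up to 4 genes of a pathway list by TPM and 2 by ratio, up to 3 of a cell type list, and 10 fixed genes) were chosen with earlier results of these data known. Genes named beyond that rule, such as H2-K2, H2-T24, H2-Q5, Mx1, Ifit2, Clec4f, Marco, Xcr1 and Cd3e, were chosen after their values were seen. A gene named by the rule is not reported here.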

Additional observations from a re-analysis of the deposited data

How the results depend on the processing

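No paired analysis was possible because both libraries belong to 1 group. The members' median log2 ratio of 0.34 became 0.24 from deposited TPM, whose median over all genes is -0.11, and -0.20 with spike-in scaling, which shifts the median of all genes to -0.54. Centred on all genes, these gave 0.35 and 0.34 (centring was added after the data were seen). With spike-ins, 2 of 10 members were higher in replicate 1, and the 1 member past 1.5-fold was Tap2 (-0.63), not H2-Aa. Members past the fold numbered 0 from TPM, 6 at the lower of the other folds tried and 0 at 2-fold. From junction reads (count 1 over count 2) 2 passed (H2-Aa and Nlrc5), with no matching count over all genes to set beside them. Of the 14956 genes with a mean count of at least 50, 854 (5.71%) passed 1.5-fold. That number was 998 from TPM, 6132 with spike-ins, 2642 at the lower fold and 272 at 2-fold. With other count minimums, 6208 genes passed 1.5-fold without a filter (26.8% of genes above 0). At a mean count of at least 10 it was 1893 (10.7%), and at 500 it was 285 (2.49%). The class I to class II ratio of 19.1 was 30.6 from counts without length and 17 from mm9 RPKM, and lay between 18.1 and 20.2 with 1 replicate left out. All 10 members stayed at 1 TPM with either replicate alone. On mm9 RPKM, 6 of 10 members kept their place in the order. All 10 values also differed, but RPKM is another unit than TPM and was made on another annotation, so the values are not like for like. The cause of these shifts was not tested, and 2 libraries limit every spread given.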

Other observations

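Genes of costimulation, which T cells need beside a presented peptide, were present at low levels. Cd86 stood at 6.30 TPM in replicate 1 and 5.96 TPM in replicate 2, Cd40 at 2.78 and 2.64, Icosl at 2.49 and 2.35, Cd83 at 1.06 and 0.88, and Cd80 at 0.56 and 0.48. Cd274, the inhibitory ligand PD-L1, stood at 5.11 and 6.12 TPM, the only one of the 6 such genes with a mean count of at least 50 that was lower in replicate 1 (log2 ratio -0.16). The median of the 6 was 0.22, and none passed 1.5-fold, where 5.71% of all genes did.

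The pseudogene H2-K2, a neighbour of H2-K1, stood at 9.61 TPM in replicate 1 and 7.15 TPM in replicate 2, near the level of H2-Ab1. H2-K2 shares windows of 1 read length with H2-D1, and how much of its level came from such reads was not tested.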
